A study of Mus musculus with 6 samples.

Results

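The 10 genes described here encode cartilage matrix proteins and the Sox factors tied to their transcription, and they were chosen by name from 16964 mouse genes that are listed in the count tables of all 3 tissues. They are Sox9, Sox5 and Sox6 (transcription factors), Acan (aggrecan), Hapln1 (cartilage link protein), Matn3 and Matn4 (matrilins), Cnmd (chondromodulin), and Cilp and Cilp2 (cartilage intermediate layer proteins). RNA-seq of bulk tissue was available for 2 libraries each of the Achilles tendon, the infrapatellar fat pad (the adipose cushion of the knee joint) and the rectus femoris, a thigh muscle. The series title names female mice and the aromatase inhibitor letrozole. Strain, genotype, age and dose are not stated in the labels. "Letrozol" is part of the title of each fat pad library and of no tendon or muscle title, so that in comparisons with the fat pad a drug effect and a tissue effect cannot be told apart. For all 6 libraries the source label reads fat pad, and groups follow a second label that names 3 tissues. Library numbers 1 and 2 follow the names in the labels. Whether the pair of a tissue came from different mice, or differ in treatment, is not stated. Each p-value therefore rests on variation between libraries that may be technical or may include a treatment effect. All 6 libraries carry the same batch label. Codes in the library titles nevertheless differ between the tissues, and what they stand for is not stated. Anything they mark cannot be told apart from tissue.

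Sox9 is the transcription factor that starts and maintains the chondrocyte programme, and Sox5 and Sox6, of the related SoxD group, act with it on cartilage genes. Aggrecan binds hyaluronan with the help of link protein and gives cartilage its resistance to compression, and matrilins join collagen fibrils to proteoglycans. Part of this programme is also used in tendon, in its fibrocartilage near bone and where it is compressed, while in muscle Sox6 is known as a repressor of slow-fibre genes.

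Total counts were 59042675 and 62063826 in tendon, 83132413 and 106319037 in the fat pad, and 56216295 and 58544836 in muscle. The labels were checked with marker genes, as sums of counts scaled to a common library size by the trimmed mean of M-values (TMM-scaled CPM). Tenocyte markers (8 genes) summed to 17720 and 18600 CPM in tendon, against 339 to 551 CPM in the fat pad and 1499 to 2208 CPM in muscle. Adipocyte markers (6 genes) summed to 2768 and 472 CPM in tendon, 60870 and 67280 CPM in the fat pad, and 830 and 1114 CPM in muscle. Fast muscle markers (7 genes) summed to 9364 and 46930 CPM in tendon, 95.6 and 86.2 CPM in the fat pad, and 227200 and 202600 CPM in muscle. By sum, each tissue was highest for its own of these 3 lists. Cfd held most of the adipocyte sum, at 51770 and 58580 CPM in the fat pad. Plin4 and Lep went the other way, with means of 215 and 15.7 CPM in the fat pad against 432 and 35.9 CPM in tendon. Plin4 also had a mean of 535 CPM in muscle. By counts, the tendon libraries also held RNA of muscle and fat genes, in unequal amounts. Slow muscle markers (4 genes) were at 7543 and 4006 CPM in tendon, at 1.56 and 1.52 CPM in the fat pad, and at 13.7 and 37.4 CPM in muscle. Synovial lining markers (5 genes) summed to 1353 and 787 CPM in tendon, 15970 and 18260 CPM in the fat pad, and 412 and 421 CPM in muscle. Bone markers (5 genes) summed to 12.2 and 13.5 CPM in tendon, 156.5 and 56.9 CPM in the fat pad, and 1.94 and 1.43 CPM in muscle, where Sp7, the osteoblast factor, was at 0 in both libraries. The fat pad libraries therefore held RNA of synovial lining and some of bone beside that of fat. Not every marker followed these sums. Clic5, of the synovial list, was at 211 and 113 CPM in the fat pad and 362 and 384 CPM in muscle. Phex, of the bone list, had means of 0.53 CPM in the fat pad and 0.84 CPM in muscle. In bulk RNA, fewer cells of a type and less RNA per cell cannot be told apart.

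Of the 10 genes, 4 were called higher in tendon than in both other tissues, namely Acan, Matn3, Cilp and Cilp2. The share of all genes called higher in both comparisons was not counted, so nothing is read from this number. Singly, 31.4% of all genes were called higher in tendon over fat pad and 13.3% in tendon over muscle. The Acan call over the fat pad lay near the threshold (edgeR adjusted p = 0.0459) and was lost in several of the alternatives. The promoters of these 4 genes are shown because the genes share these calls. Their patterns differed otherwise. In fat pad over muscle the log2 fold change was 2.10 for Acan and -0.25 for Matn3, neither called. It was -2.11 for Cilp and -4.11 for Cilp2, both called lower. The sequences are from RefSeq on build GRCm38.p6 and run from 250 bases before the annotated start to 50 bases after it, 5′ to 3′ on the gene's strand. Of the 10 genes, 9 had an entry. Capitals mark matches on either strand to ACAAT or ACAAAG, core letters bound by SOX proteins, and to CANNTG, the E-box bound by basic helix-loop-helix factors such as scleraxis.
Acan, chr7:79052976-79053275, plus strand: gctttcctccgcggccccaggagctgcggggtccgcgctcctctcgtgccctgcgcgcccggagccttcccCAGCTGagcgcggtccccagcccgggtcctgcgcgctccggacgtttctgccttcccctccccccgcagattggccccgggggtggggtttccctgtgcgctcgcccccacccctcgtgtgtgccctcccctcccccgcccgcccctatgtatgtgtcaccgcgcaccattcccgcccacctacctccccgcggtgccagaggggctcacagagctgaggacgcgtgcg
Matn3, chr12:8947679-8947978, plus strand: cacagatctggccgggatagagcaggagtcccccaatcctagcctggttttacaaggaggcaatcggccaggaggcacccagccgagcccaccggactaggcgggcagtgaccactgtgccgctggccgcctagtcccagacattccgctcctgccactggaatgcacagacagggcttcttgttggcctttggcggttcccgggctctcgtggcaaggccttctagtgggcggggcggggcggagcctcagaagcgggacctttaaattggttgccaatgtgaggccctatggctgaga
Cilp, chr9:65264930-65265229, plus strand: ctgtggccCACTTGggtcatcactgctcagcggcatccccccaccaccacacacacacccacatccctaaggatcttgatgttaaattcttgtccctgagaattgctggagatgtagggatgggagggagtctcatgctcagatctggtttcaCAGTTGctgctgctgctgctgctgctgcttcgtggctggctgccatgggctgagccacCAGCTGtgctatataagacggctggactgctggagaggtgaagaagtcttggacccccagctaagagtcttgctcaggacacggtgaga
Cilp2, chr8:69887343-69887642, minus strand: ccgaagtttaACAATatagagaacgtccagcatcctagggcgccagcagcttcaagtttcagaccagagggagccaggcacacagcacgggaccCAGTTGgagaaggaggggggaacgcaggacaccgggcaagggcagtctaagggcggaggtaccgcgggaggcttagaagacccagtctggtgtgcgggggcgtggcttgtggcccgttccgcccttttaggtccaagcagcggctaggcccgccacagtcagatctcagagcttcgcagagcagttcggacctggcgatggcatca

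The Cilp window held 3 E-box matches, at -242, -97 and -39, counted in bases from the start. The Acan window held 1, at -179, and the Cilp2 window held 1 E-box at -156 and 1 ACAAT at -240. The Matn3 window held none of the 3 letter strings. Among 32851 mouse promoter windows of the same length, 72.3% held CANNTG, 31% held ACAAT and 18.7% held ACAAAG, so matches like these are common. ACAAT and ACAAAG do not overlap each other here, and a match is a string of letters, not a binding site.

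The Sox factors did not share a pattern across the tissues. Sox9 was at 13.7 and 5.76 CPM in tendon, 4.14 and 6.13 CPM in the fat pad, and 1.81 and 2.33 CPM in muscle. Tendon library 1 was the highest of all, tendon library 2 lay within the fat pad range, and both tendon libraries were above both muscle libraries. Sox9 was called higher in tendon than in muscle, with a log2 fold change of 2.23 ± 0.50 (SE, edgeR adjusted p = 0.0225), and its tendon over fat pad value of 0.92 ± 0.47 was not called (edgeR adjusted p = 0.134). Its fat pad over muscle value of 1.31 ± 0.48 lay beside the threshold (edgeR adjusted p = 0.052, and 0.0172 to 0.322 over the alternatives).

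Sox5, a SoxD factor without a transactivation domain, was highest in the fat pad. It was at 7.67 and 4.25 CPM in tendon, 55.6 and 50.4 CPM in the fat pad, and 1.91 and 2.33 CPM in muscle. The 3 tissues did not overlap, with the fat pad highest and muscle lowest. The log2 fold change was -3.15 ± 0.32 in tendon over fat pad (edgeR adjusted p = 0.00026), 1.49 ± 0.32 in tendon over muscle (edgeR adjusted p = 0.0199) and 4.64 ± 0.35 in fat pad over muscle (edgeR adjusted p = 7.89e-05). In the GENCODE M21 annotation 9.25% of the exon bases of Sox5 are also covered by Sox5os1 on the opposite strand, and since no strand setting is stated, reads of that antisense gene could be counted with it. The sums of adipocyte and synovial lining markers were also highest in the fat pad (60870 and 67280 CPM, and 15970 and 18260 CPM). Plin4, Lep and Clic5 of these lists had higher means in another tissue. The part of adipocytes and synovial lining in the Sox5 level was not tested.

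Sox6, the other SoxD factor, was highest in muscle. It was at 38.4 and 82.8 CPM in tendon, 42.2 and 34.7 CPM in the fat pad, and 199 and 224.1 CPM in muscle. Both muscle libraries were above all others, while tendon and fat pad overlapped. Sox6 was lower in tendon than in muscle by a log2 fold change of -1.80 ± 0.36 (edgeR adjusted p = 0.0175) and lower in the fat pad than in muscle by -2.46 ± 0.37 (edgeR adjusted p = 0.00128). Its tendon over fat pad value was 0.66 ± 0.35 (edgeR adjusted p = 0.15, with 0.00683 without tendon library 1 and 0.00683 to 0.98 over the alternatives). Tendon library 2, with the higher Sox6, also had the higher sum of fast muscle markers (46930 against 9364 CPM in tendon library 1). The sum of slow muscle markers went the other way, at 4006 CPM in tendon library 2 against 7543 CPM in tendon library 1. The part of muscle RNA in the tendon level of Sox6 was not tested.

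**Figure D1:**
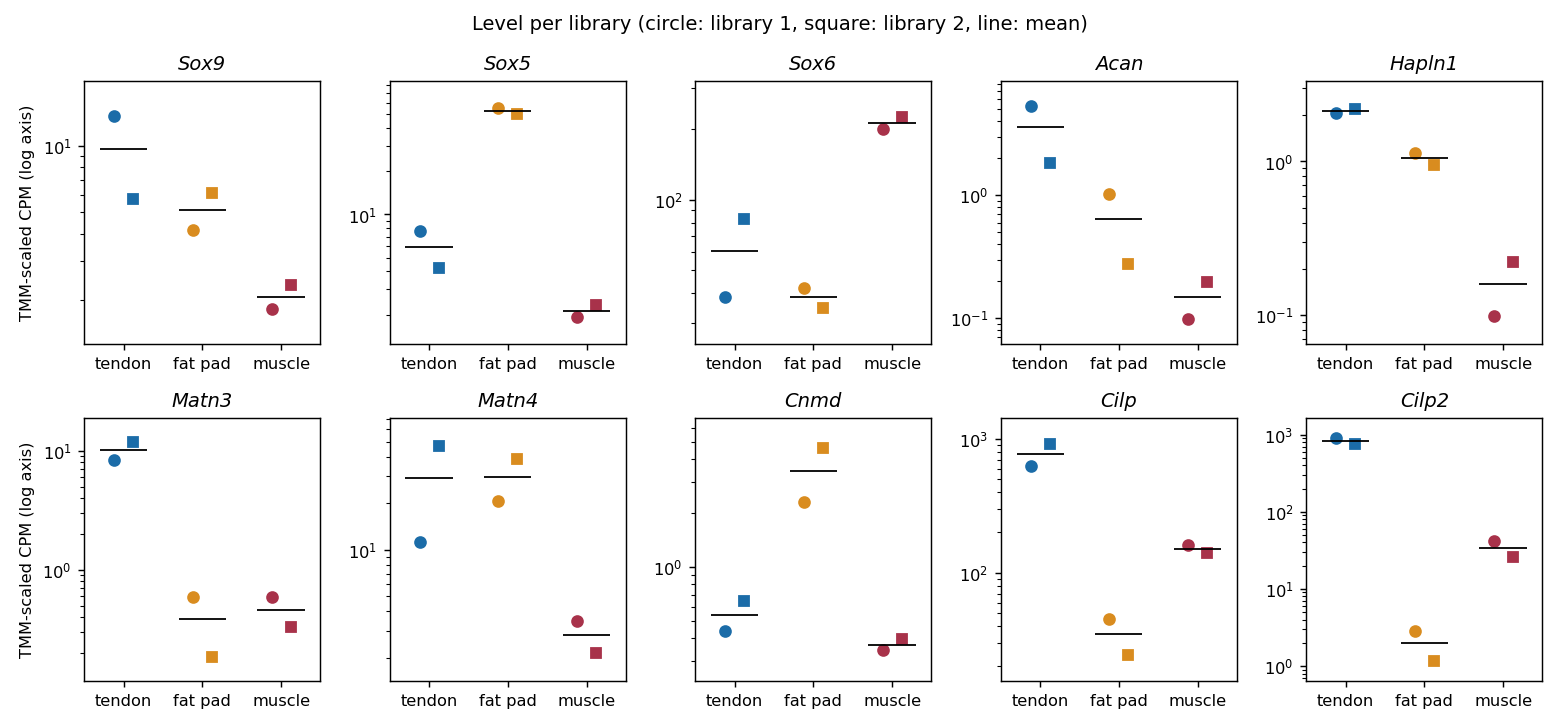
TMM-scaled CPM of the 10 genes in each library, on log axes with a range per gene; circles are library 1, squares library 2 and lines the tissue means. Cilp and Cilp2 are highest in both tendon libraries, Sox5 and Cnmd in both fat pad libraries, and Sox6 in both muscle libraries.

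Aggrecan and its link protein were scarce in all 3 tissues and highest in tendon. Acan had 414 and 134 counts in tendon, 92 and 31 in the fat pad, and 4 and 9 in muscle, which is 5.33 and 1.84 CPM in tendon, 1.02 and 0.276 CPM in the fat pad, and 0.098 and 0.198 CPM in muscle. The tissues did not overlap, although library 1 exceeded library 2 within both tendon and fat pad. The log2 fold change was 4.57 ± 1.01 in tendon over muscle (edgeR adjusted p = 0.0218) and 2.47 ± 0.88 in tendon over fat pad (edgeR adjusted p = 0.0459). In fat pad over muscle it was 2.10 ± 0.94, which was not called (edgeR adjusted p = 0.0932). The tendon over fat pad call was lost without tendon library 1, where the value was 1.46 (edgeR adjusted p = 0.301), and its adjusted p ran between 0.0168 and 0.301 over the alternatives. Without fat pad library 2 it was 1.83 (edgeR adjusted p = 0.147). The call was lost by less without muscle library 1 or 2 (0.0601 and 0.0608) and in the 4 libraries of these tissues alone (0.0578).

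Hapln1, whose product locks aggrecan to hyaluronan, had 160 counts in each tendon library, 103 and 107 in the fat pad, and 4 and 10 in muscle. That is 2.06 and 2.20 CPM in tendon, 1.14 and 0.952 CPM in the fat pad, and 0.098 and 0.22 CPM in muscle. The tissues did not overlap, and unlike Acan the tendon libraries were alike. Hapln1 was called higher in tendon than in muscle at 3.72 ± 0.72 on the log2 scale (edgeR adjusted p = 0.0157) and, in fat pad over muscle, higher at 2.69 ± 0.70 (edgeR adjusted p = 0.0141). Its tendon over fat pad value of 1.03 ± 0.62 was not called (edgeR adjusted p = 0.196). The fat pad over muscle call was lost without muscle library 1, at 2.23 (edgeR adjusted p = 0.0831; 0.000489 to 0.301 over the alternatives).

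The matrilins, adaptor proteins of the cartilage matrix, differed from each other. Matn3 was at 8.37 and 11.9 CPM in tendon, 0.586 and 0.187 CPM in the fat pad, and 0.588 and 0.33 CPM in muscle. Tendon stood apart from both other tissues, which overlapped. The log2 fold change was 4.72 ± 0.68 in tendon over fat pad (edgeR adjusted p = 0.00109), 4.46 ± 0.68 in tendon over muscle (edgeR adjusted p = 0.00965) and -0.25 ± 0.63 in fat pad over muscle (edgeR adjusted p = 0.75), where the sign turned under total-count scaling (0.28).

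Matn4 was instead shared by tendon and fat pad. It was at 11.3 and 47.1 CPM in tendon, 20.8 and 38.7 CPM in the fat pad, and 3.46 and 2.16 CPM in muscle. The tendon libraries lay on either side of both fat pad libraries, and all 4 were above muscle. The value was 3.38 ± 0.71 on the log2 scale in tendon over muscle (edgeR adjusted p = 0.0194) and 3.41 ± 0.71 in fat pad over muscle (edgeR adjusted p = 0.00562). In tendon over fat pad it was -0.03 ± 0.64 (edgeR adjusted p = 0.974), with -1.39 without tendon library 2 (edgeR adjusted p = 0.0414) and 0.62 without tendon library 1, so either tendon library decides its sign. In GENCODE M21, 2.88% of the exon bases of Matn4 are shared with Rbpjl on the opposite strand.

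Cnmd, a membrane glycoprotein of cartilage known to block blood vessel growth and a relative of the tendon gene Tnmd (tenomodulin), was highest in the fat pad. It was at 0.438 and 0.646 CPM in tendon, 2.30 and 4.60 CPM in the fat pad, and 0.343 and 0.396 CPM in muscle. Both fat pad libraries were above all others. Cnmd was lower in tendon than in the fat pad by -2.67 ± 0.62 on the log2 scale (edgeR adjusted p = 0.00911) and higher in fat pad over muscle by 3.22 ± 0.65 (edgeR adjusted p = 0.00482). The tendon over muscle value of 0.55 ± 0.62 was not called (edgeR adjusted p = 0.535). Without fat pad library 2 the tendon over fat pad value was -2.07 and not called (edgeR adjusted p = 0.0659; 7.91e-05 to 0.0659 over the alternatives). Tnmd itself was at 229.5 and 347 CPM in tendon, 10.2 and 10.5 CPM in the fat pad, and 59.9 and 23.5 CPM in muscle, highest in tendon where Cnmd was not. As for Sox5, the sums of adipocyte, synovial lining and bone markers were highest in the fat pad too, and their part was not tested.

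Cilp and Cilp2, secreted matrix proteins named for the intermediate layer of cartilage, were the most abundant of the 10 in tendon. Cilp, known to bind and restrain TGF-beta, was at 626 and 921 CPM in tendon, 45.4 and 24.3 CPM in the fat pad, and 160.3 and 141 CPM in muscle. The tissues did not overlap, with tendon highest and the fat pad lowest. The log2 fold change was 4.47 ± 0.41 in tendon over fat pad (edgeR adjusted p = 0.000174), 2.36 ± 0.37 in tendon over muscle (edgeR adjusted p = 0.0101) and -2.11 ± 0.37 in fat pad over muscle (edgeR adjusted p = 0.00244).

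Cilp2 had the same order and wider differences. It was at 913 and 765 CPM in tendon, 2.81 and 1.17 CPM in the fat pad, and 42.2 and 26.3 CPM in muscle, again without overlap. The log2 fold change was 8.73 ± 0.60 in tendon over fat pad (edgeR adjusted p = 8.38e-05), 4.62 ± 0.50 in tendon over muscle (edgeR adjusted p = 0.00514) and -4.11 ± 0.49 in fat pad over muscle (edgeR adjusted p = 0.000451). Cilp and Cilp2 together made up 94.6% and 91.5% of the counts of the 10 genes in tendon, 27.4% and 15.8% in the fat pad, and 49.4% and 41.9% in muscle. In tendon they took 0.202% and 0.198% of all counts. Tenocyte markers moved the same way, summing to 17720 and 18600 CPM in tendon, 551 and 339 CPM in the fat pad, and 2208 and 1499 CPM in muscle, and their part in the Cilp and Cilp2 levels was not tested.

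**Figure D2:**
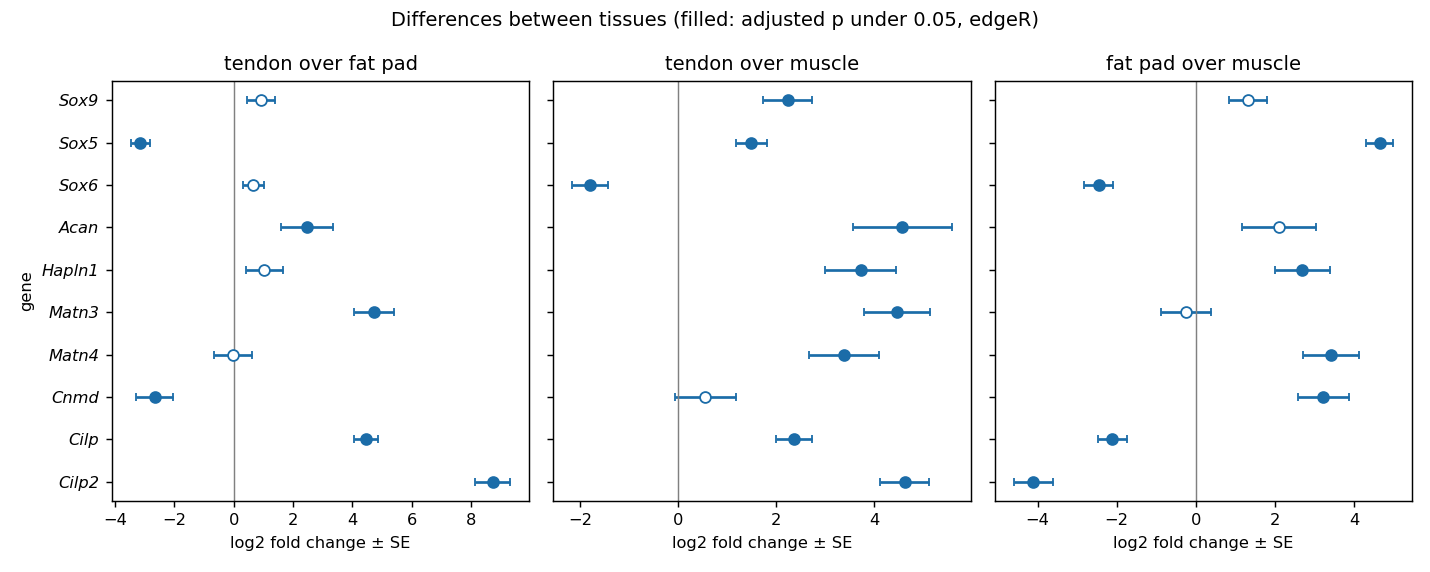
Log2 fold change and its standard error for each gene in the 3 comparisons of tissues, from edgeR; filled circles have an adjusted p under 0.05. Cilp2 has the largest value in tendon over fat pad, at 8.73, Sox5 the lowest, at -3.15, and the 2 genes differ in the opposite sense in fat pad over muscle.

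Counted over the 10 genes, tendon over fat pad gave 4 higher (Acan, Matn3, Cilp and Cilp2) and 2 lower (Sox5 and Cnmd), where 31.4% of all 15856 genes tested were called higher and 27.2% lower. The median log2 fold change was 0.97 for the 10 genes and 0.01 for all genes. These shares are near the background. Tendon over muscle gave 8 higher and 1 lower (Sox6), where 13.3% of all genes were called higher and 12.7% lower, with a median of 2.87 for the 10 genes against 0.10 for all genes. Without either muscle library none of the 10 was called in edgeR's quasi-likelihood test, with adjusted p between 0.0578 and 0.146 for the 9, an unadjusted p under 0.05 for each of the 9 and every sign kept, while 37 genes were called higher and 6 lower of all genes without muscle library 1, and 14 and 5 without muscle library 2. Without tendon library 1 there were 5 higher, and Sox9, Sox5 and Acan were not called. Fat pad over muscle gave 4 higher (Sox5, Hapln1, Matn4 and Cnmd) and 3 lower (Sox6, Cilp and Cilp2), where 29.8% of all genes were called higher and 29.6% lower, with medians of 1.70 and 0.14. The 3 comparisons share libraries, so these counts are not independent of each other. All 10 passed the filter on low counts, and 8 had at least 10 counts in every library; Acan and Hapln1 had fewer in muscle.

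Levels were compared between genes only per length, as CPM per kilobase of exon in GENCODE M21. In tendon Cilp was at 147.1 and 217 and Cilp2 at 212 and 177 CPM per kilobase, and the next gene in the first library was Sox9 at 3.31 and in the second Matn4 at 9.11. In muscle Cilp was at 37.7 and 33.2, Sox6 at 13.4 and 15.1 and Cilp2 at 9.77 and 6.08 CPM per kilobase, with every other gene of the 10 below 1. Acan and Hapln1 stayed below 1 CPM per kilobase in all 6 libraries. In the fat pad the deposited TPM followed the counts and served as the level per length. There Cilp was at 21.2 and 11.8 TPM, Matn4 at 6.24 and 12 TPM, Sox5 at 5.94 and 5.56 TPM, and Sox9 at 3.87 and 5.93 TPM, and the ranges of Cilp with Matn4 and of Sox5 with Sox9 meet or cross. Sox6 was at 2.83 and 2.41 TPM, below Sox9, although by exon length it was above Sox9 there (2.85 and 2.34 against 1.00 and 1.48 CPM per kilobase for Sox9). Among the Sox factors, the level by exon length was highest for Sox6 in muscle. Sox9 followed there at 0.439 and 0.565 CPM per kilobase, and Sox5 at 0.133 and 0.162 CPM per kilobase. In tendon, by exon length, Sox9 led in library 1 and Sox6 in library 2. That tendon order depends on the measure. In the deposited TPM, Sox9 was at 24.0 and 28.1 and Sox6 at 6.74 and 4.08 in tendon.

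Ratios of counts within a library, which no scaling between libraries can change, showed the shift between related genes. Cilp2 over Cilp was 1.46 and 0.83 in tendon, 0.0619 and 0.0479 in the fat pad, and 0.263 and 0.186 in muscle. By counts the tissues did not overlap: tendon held about as many Cilp2 as Cilp counts and the fat pad far fewer. In the deposited TPM tendon and muscle were not apart. Cilp2 was at 667 against 402 for Cilp and 619 against 641 TPM in tendon. In muscle it was at 129.5 against 126.9 and 25 against 69 TPM. Sox9 over Sox5 was 1.79 and 1.36 in tendon, 0.0745 and 0.122 in the fat pad, and 0.949 and 1 in muscle, so counts of Sox9 exceeded those of Sox5 in tendon and fell well short of them in the fat pad. Matn3 over Matn4 was 0.742 and 0.252 in tendon, 0.0282 and 0.00483 in the fat pad, and 0.17 and 0.153 in muscle. Sox9 over Sox6 was 0.356 and 0.0696 in tendon, 0.098 and 0.177 in the fat pad, and 0.00911 and 0.0104 in muscle, with tendon and fat pad overlapping. Acan over Hapln1 overlapped between all 3 tissues, at 2.59 and 0.838 in tendon, 0.893 and 0.29 in the fat pad, and 1 and 0.9 in muscle. These ratios of counts are not per length, and their differences between tissues were not tested.

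**Figure D3:**
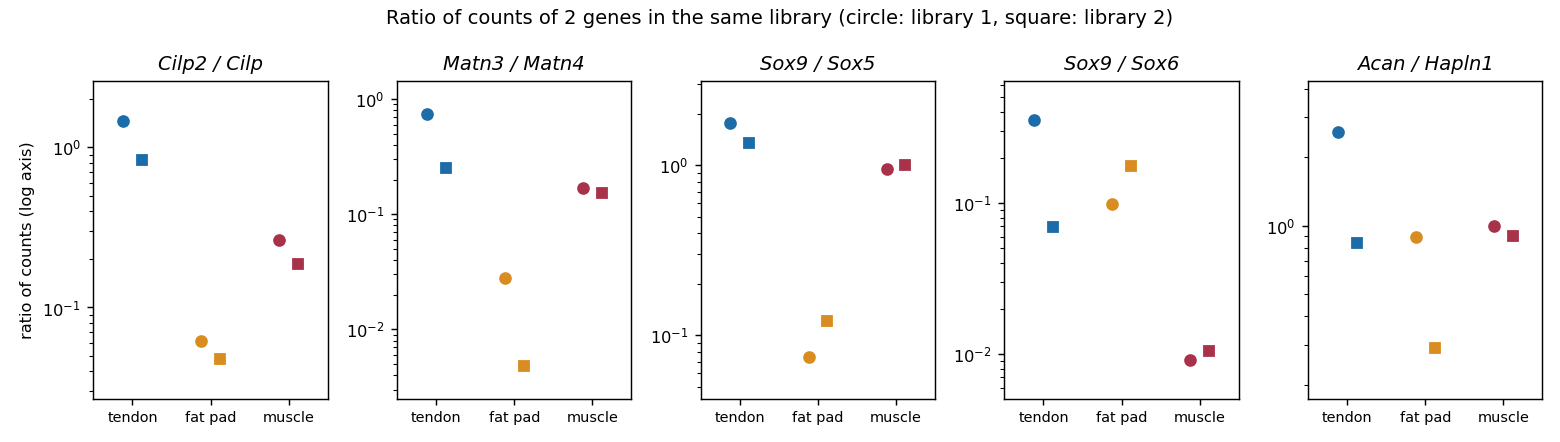
Ratio of the counts of a pair of genes in each library, on log axes; circles are library 1 and squares library 2. Cilp2 over Cilp and Sox9 over Sox5 separate the tissues, with the fat pad lowest (0.0479 to 0.0619 and 0.0745 to 0.122), while Acan over Hapln1 does not.

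Within a tissue the labels give no condition, so library 2 over library 1 describes the spread between libraries. The authors' own comparison sets library 1 against library 2, so this spread may include a difference in condition that is not stated. In tendon Matn4 and Sox6 were at least 2-fold higher in library 2, with log2 ratios of 2.06 (95% counting interval 1.95 to 2.17) and 1.11 (1.04 to 1.17). Sox9 and Acan were at least 2-fold lower in it, at -1.24 (-1.41 to -1.08) and -1.52 (-1.83 to -1.25). Of all genes that reached 20 counts in either library, 4.83% were that much higher and 9.51% that much lower. Tendon library 1, with the higher Sox9, Sox5 and Acan, also had the higher sums of adipocyte markers (2768 against 472 CPM in tendon library 2) and of 5 Schwann cell markers (1185 against 74.9 CPM). Schwann cells express the related factor Sox10, which was at 23.4 and 2.23 CPM in tendon. The part of these cells in the Sox9, Sox5 and Acan differences was not tested. The intervals cover counting error only.

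In the fat pad no gene of the 10 was at least 2-fold higher in library 2, against 6.53% of all genes, and 3 were at least 2-fold lower, against 9.28%. They were Acan at -1.81 (95% counting interval -2.52 to -1.28), Matn3 at -1.55 (-2.45 to -0.90) and Cilp2 at -1.26 (-1.59 to -0.96). Cilp pointed the same way, at -0.90, whereas Cnmd (0.99) and Matn4 (0.90) were higher in library 2. The sum of 5 bone markers was 156.5 CPM in fat pad library 1 and 56.9 CPM in library 2. Of these, Ibsp, Dmp1 and Bglap were lower in library 2, with log2 ratios of -3.22, -2.13 and -0.53. Sp7 and Phex were higher in it, at 1.11 and 2.21. The part of bone in the differences of the 10 genes was not tested. In muscle, 7 genes had enough counts and none differed 2-fold, where 3.01% of all genes were higher and 2.45% lower. The widest there were Matn3 at -0.75, on 24 counts in library 1 and 15 in library 2, Cilp2 at -0.68 and Matn4 at -0.67.

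The deposited TPM columns, which are scaled by transcript length, did not follow the deposited counts in tendon and muscle. They bear the same library names, and why they differ was not tested. Over all genes, the log2 ratio of library 2 to library 1 from TPM correlated with that from counts at Pearson r = 0.995 in the fat pad, and at -0.226 in tendon and -0.182 in muscle, a correlation across genes that are not independent replicates. Sox9, Sox5, Sox6, Acan and Cnmd, 5 of 10, had opposite signs in tendon. Acan was at 2.07 and 17.7 TPM in tendon although its counts were 414 and 134. In muscle 5 of 9 genes had opposite signs, and in the fat pad 0 of 10. In the authors' deposited table, which sets library 1 over library 2, Acan in tendon had a log2 fold change of -2.85, following the TPM. There 0 of the 10 genes (9 of them listed in muscle) had an adjusted p under 0.05 in any tissue. Among all genes such calls were rare too, at 758 of 18402 in the fat pad, 495 of 16520 in tendon and 9 of 15334 in muscle. Between tissues, the limma fits of TPM kept the sign of each of the 9 genes listed in all 3 tables in every comparison. Sox9 was at 24 and 28.1 TPM in tendon, 3.87 and 5.93 TPM in the fat pad, and 4.15 and 3.16 TPM in muscle. In those values, unlike in the counts, both tendon libraries were above both fat pad libraries, and limma on log2(TPM + 1) called Sox9 higher in tendon than in the fat pad (adjusted p = 0.000136). In the tendon TPM, library 2 was far above library 1 for each of the 5 bone markers. Log2 ratios were 10.53 for Bglap, 6.23 for Dmp1, 6.21 for Sp7, 4.74 for Phex and 3.56 for Ibsp. Hapln1 was also higher in tendon library 2, at 1.96 and 8.26 TPM, and the part of bone in this was not tested. Hapln1, too, was called higher in tendon than in the fat pad in the limma fit of TPM (adjusted p = 0.0124). That fit called 8054 of 14248 genes higher and 1618 lower in tendon over fat pad, so a higher call there was common. Other calls were lost in it. Sox5 in tendon over muscle was at 0.55 (limma adjusted p = 0.155), and 1 of the 9 genes lost its call in fat pad over muscle.

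**Figure D4:**
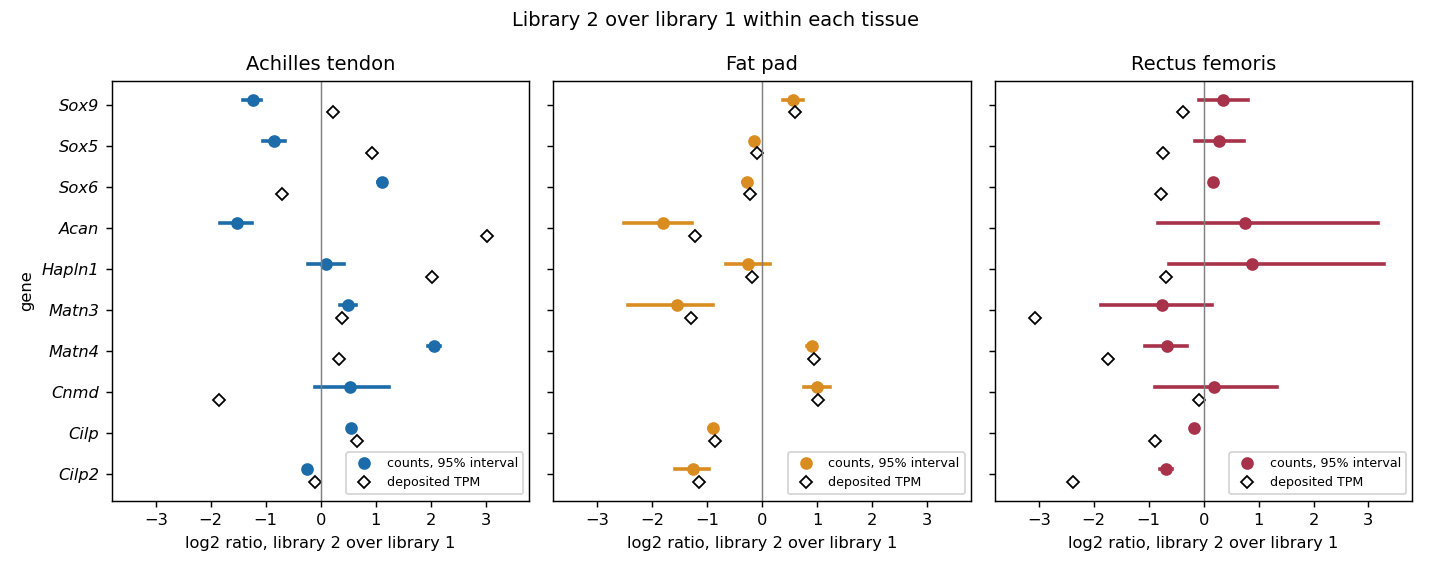
Log2 ratio of library 2 to library 1 in each tissue, from counts (filled circles, with 95% counting intervals) and from the deposited TPM (open diamonds). The 2 measures lie side by side in the fat pad and on opposite sides of 0 for 5 genes each in tendon and muscle.

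Other cartilage genes were described from lists grouped by role. The called counts of every list are to be read beside the shares of all genes tested. Those were 31.4% higher and 27.2% lower in tendon over fat pad, and 13.3% and 12.7% in tendon over muscle. In fat pad over muscle they were 29.8% and 29.6%. Of 8 other cartilage collagens, 5 were called higher and 1 lower in tendon than in the fat pad (median 2.44). Col11a1 and Col11a2, chains of the collagen that sets fibril width in cartilage, had log2 fold changes of 7.42 and 7.38, and Col9a2 3.84, while Col10a1, the collagen of hypertrophic chondrocytes, was lower at -4.00 (edgeR adjusted p = 5.56e-05, 0.00014, 0.00344 and 0.0293). Col2a1, the main collagen of cartilage, was at 7.79 and 32.6 CPM in tendon, 4.19 and 1.35 CPM in the fat pad, and 2.23 and 0.903 CPM in muscle, without overlap of tendon with either. Its tendon over muscle value was 3.69 (edgeR adjusted p = 0.0283). Tendon library 2 was above library 1 for Col2a1, with a log2 ratio of 2.06, while Acan went the other way at -1.52. In tendon over muscle 4 of 8 were called higher and 0 lower (median 1.74), and in fat pad over muscle 1 higher and 2 lower (median -1.19).

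Of 13 other cartilage matrix proteins, 11 were tested, since Matn1 and Snorc were not listed in all 3 count tables. In tendon over fat pad 6 were called higher and 0 lower (median 2.59), in tendon over muscle 6 and 1 (median 2.89), and in fat pad over muscle 3 and 2 (median 0.82). Chad (chondroadherin, a collagen-binding leucine-rich protein) was at 1794 and 1621 CPM in tendon, 23 and 31.3 CPM in the fat pad, and 34.9 and 30.2 CPM in muscle. Its log2 fold change was 5.97 in tendon over fat pad and 5.71 in tendon over muscle (edgeR adjusted p = 5.56e-05 and 0.00282). Fmod (fibromodulin), also a tenocyte marker, had 7.70 in tendon over fat pad and 3.61 in tendon over muscle (edgeR adjusted p = 0.000199 and 0.0116). Comp, a matrix protein of cartilage and tendon, was 4.95 higher on the log2 scale in tendon than in muscle (edgeR adjusted p = 0.00285). Itm2a, a membrane protein related to chondrogenic differentiation, was the gene called lower in tendon over muscle, at -1.73, and is named for that after its values were seen (edgeR adjusted p = 0.0111).

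The genes for cutting aggrecan and building its chondroitin sulfate chains had smaller medians in tendon over fat pad and tendon over muscle than the collagens and matrix proteins. Of 8 genes for aggrecan-cleaving enzymes and their inhibitor Timp3, 5 were called higher and 0 lower in tendon than in the fat pad (median 1.32), 3 and 0 in tendon over muscle (median 0.95), and 2 and 2 in fat pad over muscle (median 0.08). Adamts15, an aggrecanase, had 2.06 in tendon over fat pad and 1.74 in tendon over muscle (edgeR adjusted p = 0.00174 and 0.0149). Adamts5, the main aggrecanase of mouse cartilage, was at 75 and 44.3 CPM in tendon, 101.5 and 86.8 CPM in the fat pad, and 39.5 and 31.2 CPM in muscle, and was called in fat pad over muscle alone of the 3 comparisons (1.41, edgeR adjusted p = 0.00471). Of 11 chondroitin sulfate genes, 5 were called higher and 1 lower in tendon over fat pad (median 0.90), 6 and 0 in tendon over muscle (median 1.12), and 5 and 3 in fat pad over muscle (median 0.71). Chst3, which adds sulfate to the chain, had 3.32 and 1.93 in tendon over fat pad and over muscle (edgeR adjusted p = 0.00116 and 0.0272). Papss2, which makes the sulfate donor, had 2.10 in fat pad over muscle (edgeR adjusted p = 0.0009).

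A list of 8 other hyaluronan genes held binding proteins and the hyaluronidase Hyal2. In tendon over fat pad 1 was called higher and 2 lower (median 1.10). Tendon over muscle gave 2 and 0 (median 1.45), and fat pad over muscle 4 and 0 (median 1.67). Hyal2 was among those called, at -1.21 in tendon over fat pad and 1.14 in fat pad over muscle. The calls over muscle include Bcan and Ncan, which had 0 counts in both muscle libraries. Bcan had 7 and 24 counts in the fat pad. Vcan (versican), a relative of aggrecan, was at 66.1 and 29.9 CPM in tendon, 14.3 and 11 CPM in the fat pad, and 16.6 and 24.9 CPM in muscle, with 1.92 in tendon over fat pad (edgeR adjusted p = 0.00604). Cd44, the hyaluronan receptor, was lower in tendon than in the fat pad at -0.99 (edgeR adjusted p = 0.00618) and was 2.67 higher in fat pad over muscle (edgeR adjusted p = 0.000105).

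All 3 other SoxD and SoxE factors were called higher in tendon than in the fat pad (median 2.81), 2 of 3 in tendon over muscle (median 1.50), and in fat pad over muscle 0 were higher and 1 lower (median -0.68). Sox13, the SoxD relative of Sox5 and Sox6, was at 27.1 and 21.4 CPM in tendon, 7.54 and 9.02 CPM in the fat pad, and 12 and 14.5 CPM in muscle, with 1.55 in tendon over fat pad (edgeR adjusted p = 0.00141). The 3 SoxD genes were thus each highest in a different tissue. Sox8, a relative of Sox9, was at 3.49 and 7.63 CPM in tendon, 0.841 and 0.738 CPM in the fat pad, and 1.08 and 1.43 CPM in muscle, with 2.81 in tendon over fat pad (edgeR adjusted p = 0.00408). Sox10, the Schwann cell factor, had 3.23 there (edgeR adjusted p = 0.0266), from tendon values of 23.4 and 2.23 CPM that followed the Schwann cell markers.

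Of 12 regulators and signals of chondrogenesis, 5 were called higher and 1 lower in tendon over fat pad (median 1.32), 4 and 0 in tendon over muscle (median 1.25), and 5 and 3 in fat pad over muscle (median 1.47). Fgfr3, the receptor that slows growth plate chondrocytes, had 3.17 in tendon over fat pad, and Bmpr1b, a receptor of Gdf5, had 3.27 (edgeR adjusted p = 0.000257 and 0.000403). Mef2c, a factor of both cartilage and muscle, was at 528 and 795 CPM in tendon, 36.7 and 48.6 CPM in the fat pad, and 849 and 963 CPM in muscle, and its order between tissues was that of the fast muscle markers. Pth1r, the parathyroid hormone receptor, was at 23 and 19.7 CPM in tendon, 31.6 and 48.7 CPM in the fat pad, and 2.57 and 4.45 CPM in muscle, highest in the fat pad, as Cnmd was. Its values were 2.60 in tendon over muscle and 3.51 in fat pad over muscle (edgeR adjusted p = 0.00733 and 0.000221). Of 6 genes of hypertrophic growth plate cartilage, 0 were called higher and 1 lower in tendon over fat pad (median -2.14), 2 and 0 in tendon over muscle (median 1.35), and 4 and 0 in fat pad over muscle (median 3.91). Col10a1 was the gene called lower in tendon over fat pad. It was at 0.142 and 0.11 CPM in tendon, 0.841 and 3.23 CPM in the fat pad, and 0.098 and 0 CPM in muscle. In fat pad over muscle Ibsp had the largest value, 9.66, against 5.37 for Col10a1 (edgeR adjusted p = 0.00143 and 0.015). The genes called higher in tendon over muscle were Ibsp at 7.61 and Spp1 at 5.48 (edgeR adjusted p = 0.0153 and 0.00938). The sum of bone markers, which include Ibsp, was highest in the fat pad, at 156.5 and 56.9 CPM. The part of bone in this list was not tested. The lists were chosen with earlier results of these data known, and nothing is read from their counts beyond the values themselves.

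**Figure D5:**
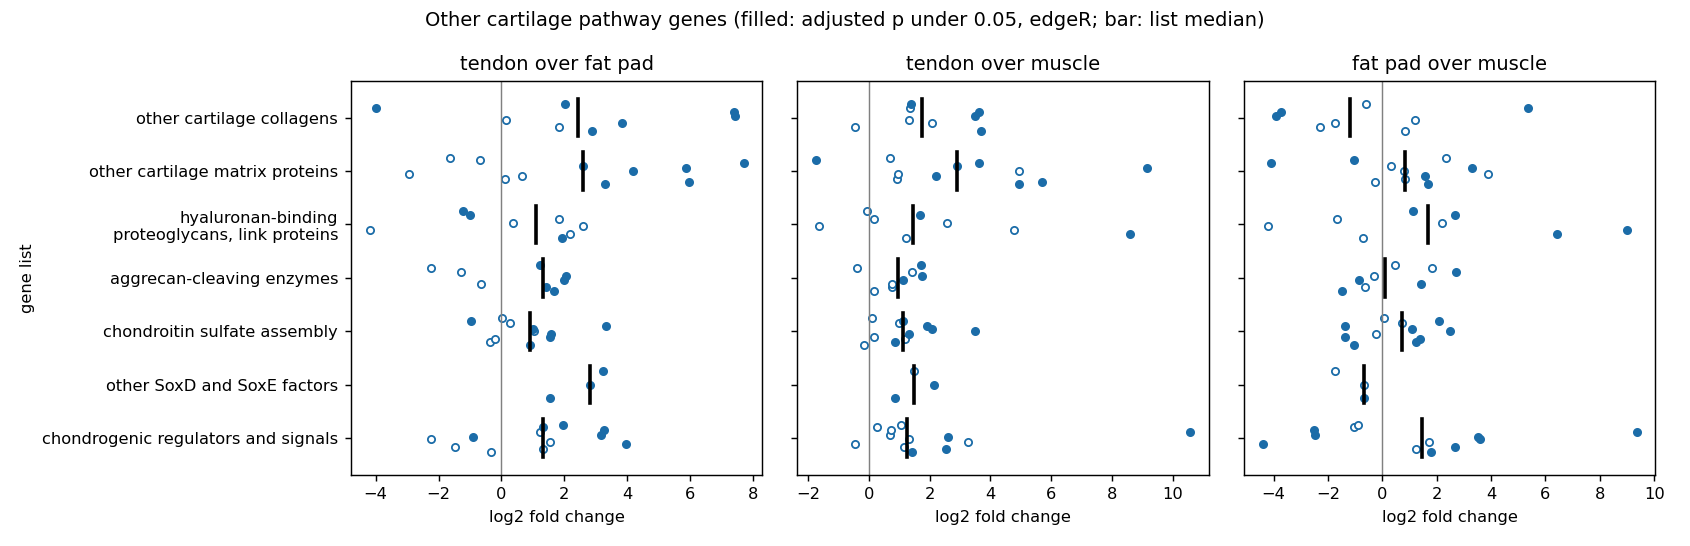
Log2 fold change of each gene of 7 cartilage gene lists in the 3 comparisons; filled circles have an edgeR adjusted p under 0.05 and black bars are list medians. The collagens and matrix proteins reach 7.42 and 7.70 in tendon over fat pad, while the chondroitin sulfate list has a median of 0.90.

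The genes with the pattern most like that of a member were found by the root mean square difference of centred log2 CPM over the 6 libraries, among 13081 genes. For Sox9 they were Mcm9 (0.12), Gpm6b (0.18), Nkd1 and Ahr (0.21 each) and Inhbb (0.23). Mcm9 was at 12.8 and 5.90 CPM in tendon, 4.41 and 5.23 CPM in the fat pad, and 1.96 and 2.14 CPM in muscle, and was, like Sox9, lower in tendon library 2 than in library 1. For Acan they were Nlrc3 (0.48), Ngef (0.57), Fhl2 (0.62), Clca3a1 (0.64) and Slc1a4 (0.67), which are farther away. For Cilp they were Cpxm2 (0.21), Fibin (0.24), Maff (0.25), and Cdh11 and Tns3 (0.28 each). Cpxm2 was at 195 and 414 CPM in tendon, 12.8 and 8.67 CPM in the fat pad, and 54.8 and 43.7 CPM in muscle. Among the 10 genes the closest pairs were Sox9 with Hapln1 and Sox5 with Cnmd (0.83 each), then Acan with Hapln1 (0.88) and Matn3 with Cilp (0.95), and the most distant pair was Sox5 with Cilp2 (5.11). The libraries are shared by all these genes, and the values describe them only.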

How the data were processed

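RNA-seq of 6 mouse libraries was analysed, 2 per tissue. The authors deposited, per tissue, whole-number counts per Ensembl gene without normalization, and TPM of protein-coding genes. The TPM tables also hold, per the file headers, a log2 fold change by the authors (library 1 against 2). The authors' p-value, its −log10 form and an adjusted value stand beside it. Bowtie2, RSEM 1.3.1, DESeq2 1.4.5 and GRCm39 are named in the submitters' processing notes, without roles; counter, strand setting, annotation and filter: not given in the sources used here. Unused per-sample columns numbered 0.

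Counts of the 16964 genes listed in all 3 tables were fitted with edgeR 4.0.16 in R 4.3.3: TMM scaling, filterByExpr, 1 term per tissue over all 6 libraries (3 residual degrees of freedom), glmQLFit and glmQLFTest, Benjamini-Hochberg adjustment over the 15856 genes tested, threshold 0.05. The biological coefficient of variation was 0.336. Standard errors were taken as fold change (log2) over the root of F. The steps were tested on simulated data. Ratios between libraries use a prior count of 2, a minimum of 20 counts in either library, and exact 95% conditional binomial intervals. Depths of 56216295 to 106319037 counts put 3 counts at 0.0508 CPM in tendon library 1. Coordinates are given for RefSeq promoters on GRCm38.p6 only, because the files are on GRCm39; GENCODE M21 gave exon lengths and overlaps.

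Alternatives were DESeq2 1.42.0 size factors, total counts, the DESeq2 Wald test, no filter on low counts, limma 3.58.1 on log2(TPM + 1) and log2(TPM + 0.1) for genes with at least 0.5 TPM in 2 libraries, the 4 libraries of a comparison alone, library number as a block, and leaving out each library. The 10 genes, the gene lists and the tests were chosen with earlier results of these data known. All 10 genes are given with their values; of listed genes, up to 4 called per list and comparison by size of change may be named, others with their values, and Col2a1 and Itm2a were named after their values were seen. The 5 genes most like Sox9, Acan and Cilp were sought among named genes averaging 1 CPM or more. Same-numbered libraries were checked for pairing and are treated as unpaired.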

Additional observations from a re-analysis of the deposited data

How the results depend on the processing

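Scaling by total counts moved the median log2 fold change of all genes by 0.21 in tendon over fat pad, 0.73 in tendon over muscle and 0.51 in fat pad over muscle, and DESeq2 size factors moved it by -0.11, -0.07 and 0.04. For the 10 genes, 2 values turned sign. Matn4 in tendon over fat pad was 0.14 with total counts, and -1.39 to 0.62 with each library left out (positive without tendon library 1 or fat pad library 2). Matn3 in fat pad over muscle was 0.28 with total counts, and -1.25 to 0.35 with each library left out (positive without fat pad library 2 or muscle library 1). The cause was not tested.

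Over all genes, tendon over fat pad gave 8054 higher and 1618 lower with limma on log2(TPM + 1), and 7977 and 1555 with log2(TPM + 0.1), against 4972 and 4308 from counts. Tendon over muscle gave 5969 and 398 with total counts, 3040 lower with the DESeq2 Wald test, 4455 and 536 with log2(TPM + 1) and 4062 and 462 with log2(TPM + 0.1), against 2110 and 2017. Fat pad over muscle gave 3046 higher with log2(TPM + 1) and 3098 with log2(TPM + 0.1), against 4728. Leaving out each library gave, for all genes, 4324 to 4592 higher and 3501 to 4104 lower in tendon over fat pad, 14 to 2286 and 5 to 2094 in tendon over muscle, and 3204 to 4986 and 3688 to 4788 in fat pad over muscle. For the 10 genes it gave 3 to 5 higher and 1 to 3 lower, 0 to 8 and 0 to 1, and 3 to 5 and 3 in these comparisons.

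Within tissues, tendon library 2 had 1 of the 10 at least 2-fold higher with total counts and 1 lower in TPM. The tendon genes were not the same in TPM as in counts. In TPM, Acan and Hapln1 were higher in library 2, at log2 ratios of 3.03 and 2.02, and Cnmd was lower, at -1.85. From counts, Matn4 and Sox6 were higher, and Sox9 and Acan lower. Fat pad library 2 had 1 higher in TPM and 1 lower at a minimum of 100 counts, and muscle library 2 had 3 lower in TPM.

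Labels give no pairing by library number. Differences of library 2 from library 1 correlated between tissues at 0.00217 (tendon and fat pad), -0.167 (tendon and muscle) and -0.0267 (fat pad and muscle) over 15856 genes. With library number as a replicate block, genes called lower in tendon over muscle numbered 1266, and the counts of the 10 genes were 4 higher and 2 lower, 8 and 1, and 4 and 3, as without it. With 2 libraries a tissue, precision rests on 3 residual degrees of freedom, and Acan and Hapln1 in muscle on 4 to 10 counts a library.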
